A study of Mus musculus with 12 samples.

Results

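Kinesins are motor proteins that walk along microtubules, and their genes were described here in 2 mouse fibroblast lines given Sonic hedgehog. The members were every gene of the expression table whose symbol is Kif followed by a number, with or without a letter from a to c, or Kifc followed by a number, which gave 40 genes of the 24346 with values. NIH-3T3 is an adherent line from NIH/Swiss mouse embryos, and MLg is an adherent line from the lung of newborn ddY mice. Each line received either vehicle (control) or 1 µg/ml of SHHN, the recombinant amino-terminal signalling part of Sonic hedgehog, for 48 h. All 4 groups were kept in medium with 0.5% fetal bovine serum during that time, so the controls were also low in serum. Each group held 3 libraries, 12 in all, and levels are FPKM (fragment numbers corrected for transcript length and library size). Each line is a single established line, so a difference between them is a difference between these lines and not between embryo and lung.

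A kinesin uses ATP to move, and its family decides whether it carries cargo, slides microtubules past each other or takes microtubule ends apart. Mitotic kinesins build the spindle, align chromosomes and complete the separation of the daughter cells, and their mRNAs are known to be low in resting cells and high in dividing ones. Kif3a and Kif3b form the heterotrimeric kinesin-2 motor that builds the primary cilium, where Hedgehog signals are received, and Kif7 works at the tip of that cilium as a regulator of the Gli transcription factors. The remaining kinesins mostly move vesicles, organelles and mRNA, or adjust microtubule growth.

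The Hedgehog targets Gli1 and Ptch1 matched the treatment labels, and the line labels were not checked against outside values. Gli1, a direct target of the Hedgehog pathway, was between 0.0840 and 0.906 FPKM in the 6 control libraries and between 113 and 151 FPKM in the 6 SHHN libraries. Ptch1, the Hedgehog receptor and also a target, went from at most 3.68 FPKM to at least 114 FPKM. Of 10 fibroblast markers, 9 were at 37.2 FPKM or more in every library, and Thy1 was at most 0.106 FPKM in MLg against 115 to 204 FPKM in NIH-3T3. Of the epithelial and leukocyte markers, Epcam, Krt18 and Cd3e were listed at 0 in all libraries, and Krt8 and Ptprc were at most 0.0621 and 0.101 FPKM. Cdh1 was at most 0.0459 FPKM in NIH-3T3 controls and 0.0132 FPKM in MLg, but 0.270 to 0.558 FPKM in NIH-3T3 with SHHN. Cd68 was at 0.354 to 1.71 FPKM over the 12 libraries. The summed endothelial markers were at most 0.135 FPKM in the control libraries, 2.19 to 14 FPKM in NIH-3T3 with SHHN and 4.77 to 5.48 FPKM in MLg with SHHN, nearly all from Cdh5, with Pecam1 at most 0.137 FPKM, and their part in the kinesin levels was not tested. The second NIH-3T3 control library had the highest FPKM total and the fewest genes above 0, and kinesin calls that change without it are given with their genes.

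Of the 40 kinesin genes, 31 reached 0.5 FPKM in at least 3 libraries and were tested. Of those, 18 were higher and 3 lower with SHHN in NIH-3T3, where 16.6% of all 12379 tested genes were called higher and 14.8% lower (31.4% in either direction) at an adjusted p under 0.05 by limma. In MLg 16 were higher and 0 lower, against 12.8% and 10.0% of all genes (22.8% in either direction). For that 0, limma gave 2 genes lower at an unadjusted p under 0.05, and at the adjusted p there was 1 after median-ratio scaling and 2 after quantile normalisation. The count of 3 lower in NIH-3T3 was 1 without its first control library and 5 without its second. The median log2 difference over the 31 was 0.60 in NIH-3T3 and 0.56 in MLg, beside -0.01 and 0.00 over all tested genes. The calls were not spread evenly over the roles: all 12 tested mitotic kinesins rose in both lines, whereas 4 of 14 cargo kinesins rose in NIH-3T3 and 3 of 14 in MLg. The roles were assigned with earlier results of these data known. Kif2a, which acts in resting and dividing cells, was counted with the cargo class. The 9 untested genes were Kif2b and Kif12, listed at 0 in all 12 libraries, Kif1a, Kif5c, Kif17, Kif19a and Kif26a, each at most 0.164 FPKM, Kif27, at most 0.253 FPKM, and Kif6, which reached 0.581 FPKM at its highest.

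**Figure D1:**
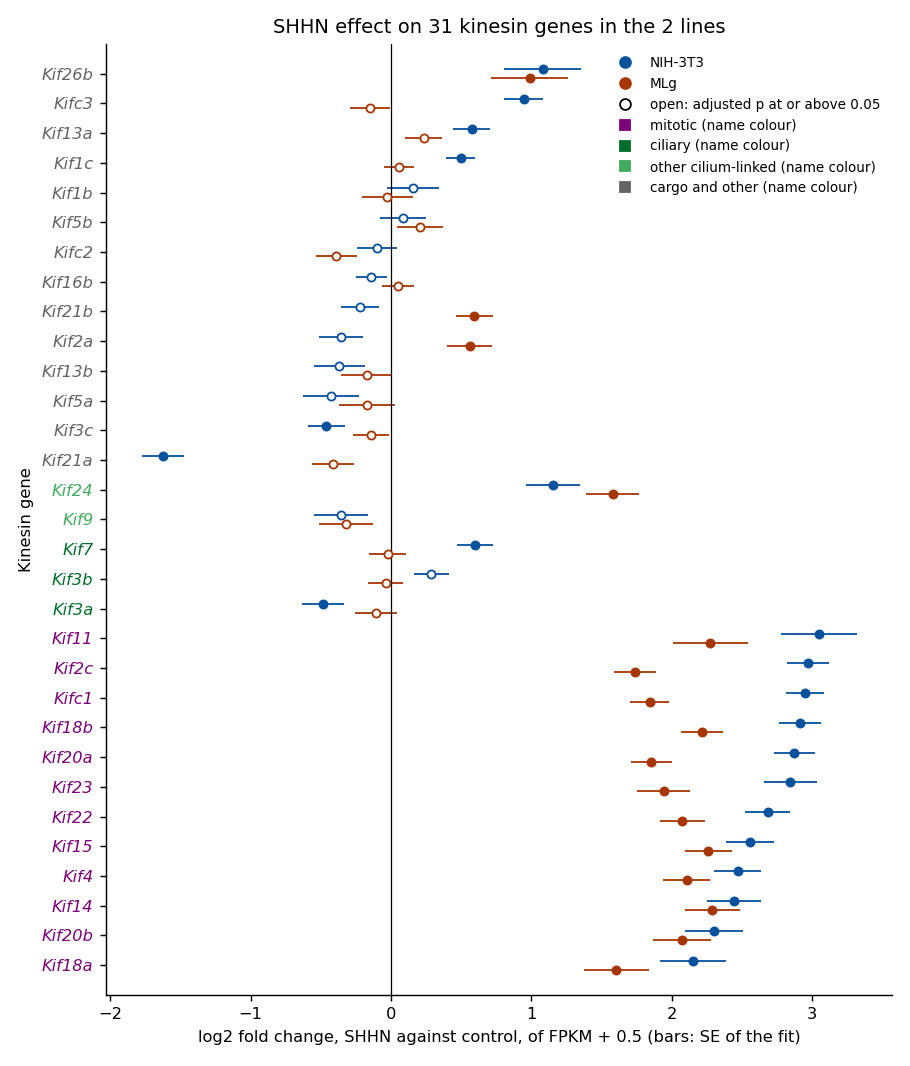
Effect of SHHN on each of the 31 tested kinesin genes, as the log2 fold change of FPKM + 0.5 against control on the horizontal axis, with 1 point per line and bars for the standard error of the fit. The 12 mitotic genes lie between 1.61 and 3.05 in both lines, and most other genes lie near 0.

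Kif11, also called Eg5, crosslinks and slides spindle microtubules apart and is the target of antimitotic drugs such as monastrol. The gene lies at chr19:37376403-37421859, plus strand of GRCm38. Its level was 2.77, 1.03 and 2.40 FPKM in the NIH-3T3 controls and 18.5, 18.7 and 22.1 FPKM with SHHN. In MLg it was 3.78, 5.69 and 7.67 FPKM in the controls and 29.6, 24.6 and 32.0 FPKM with SHHN. The groups did not overlap in either line, and the mean went from 2.06 ± 0.917 to 19.8 ± 2.0 FPKM in NIH-3T3 and from 5.71 ± 1.95 to 28.7 ± 3.75 FPKM in MLg (SD, n = 3 each). The log2 fold change was 3.05 (SE 0.27, adjusted p 1.2e-06) in NIH-3T3 and 2.28 (SE 0.27, adjusted p 2.6e-05) in MLg. Its rank among the 40 kinesins went from 18 to 4 in both lines. In libraries made from whole cultures, more cells of a state and more RNA per cell cannot be told apart, and this holds for every level given here.

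Other spindle motors rose by similar amounts. Kifc1 (HSET), a minus-end motor that bundles spindle microtubules and clusters centrosomes, was at 3.09, 3.37 and 2.67 FPKM in NIH-3T3 controls and 25.3, 26.5 and 28.7 FPKM with SHHN. In MLg Kifc1 was at 6.37, 8.81 and 7.81 FPKM without and 30.5, 25.1 and 30.3 FPKM with SHHN. It had the smallest adjusted p of the kinesins in NIH-3T3 (7.2e-09, log2 fold change 2.95). Of the 50-base stretches of Kifc1 transcripts, 45.8% also occur in its near-identical relative Kifc5b, so the split of reads between the pair is uncertain. Summing both genes gave log2 fold changes of 3.04 in NIH-3T3 and 1.92 in MLg, and no Kifc1 call changed.

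Kif15, which works beside Kif11 in holding the spindle open, was at 0.576, 0.647 and 0.609 FPKM in NIH-3T3 controls and 6.06, 5.79 and 6.30 FPKM with SHHN. It was at 1.85, 2.33 and 3.30 FPKM in MLg controls and 14.7, 11.4 and 15 FPKM with SHHN. Both lines thus showed clear gaps between treated and control libraries.

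Kif18b, which shortens astral microtubules, was at 1.01, 0.696 and 0.781 FPKM in NIH-3T3 controls and at 8.45, 10.1 and 9.98 FPKM with SHHN. Its MLg levels were 2.60, 2.74 and 3.15 FPKM without and 17.2, 12.7 and 15.3 FPKM with SHHN, and it had the smallest adjusted p of the kinesins there (2.2e-07, log2 fold change 2.22). Kif2c (MCAK) does not walk but takes microtubule ends apart and corrects wrong attachments of chromosomes. It rose from 2.23, 1.65 and 2.30 FPKM to 17.6, 19.5 and 21.4 FPKM in NIH-3T3, and from 3.12, 3.44 and 3.78 FPKM to 12.4, 11 and 14.8 FPKM in MLg.

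Motors of chromosome arms and of the last steps of division moved in the same direction. Kif22 (Kid) pushes chromosome arms toward the spindle equator, and it rose from 2.02, 2.52 and 1.92 FPKM to 14.4, 17.4 and 17.8 FPKM in NIH-3T3 and from 4.61, 7.15 and 5.68 FPKM to 27.4, 23.0 and 27.1 FPKM in MLg. Kif20a (MKLP2) and Kif23 (MKLP1) act at the midzone between the separating chromosomes, which is needed for cytokinesis. Kif20a was at 1.61, 1.95 and 2.08 FPKM in NIH-3T3 controls, 14.4, 18.1 and 18.6 FPKM with SHHN, 7.84, 7.31 and 8.70 FPKM in MLg controls and 33.0, 25.1 and 32.6 FPKM with SHHN. Kif23 was at 1.71, 0.901 and 1.41 FPKM, then 12.2, 11.8 and 13.6 FPKM in NIH-3T3, and at 3.83, 5.18 and 6.18 FPKM, then 21.2, 17.9 and 23.0 FPKM in MLg. No treated library of these motors fell within the control range of its line.

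The remaining tested mitotic genes were Kif4, a chromosome-arm and midzone motor, Kif14, a midbody motor, Kif18a, which limits chromosome oscillation, and Kif20b, a cytokinesis motor. Their log2 fold changes were 2.15 to 2.47 in NIH-3T3 and 1.61 to 2.29 in MLg, and all 4 passed the test in both lines. Kif18a had the smallest log2 fold change of the class in each line, 2.15 and 1.61. This rank depends on the 0.5 FPKM added before the log and does not hold for the FPKM means. The NIH-3T3 means went from 0.693 to 4.75 FPKM for Kif18a and from 1.43 to 8.83 FPKM for Kif20b. In MLg they went from 1.21 to 4.54 FPKM for Kif18a and from 3.44 to 12.7 FPKM for Kif2c. Because 0.5 FPKM was added before the log, genes with controls near that level changed by more than these values say, as for Kif14, whose NIH-3T3 controls were at 0.413, 0.0971 and 0.329 FPKM and treated libraries at 3.53, 3.86 and 3.67 FPKM.

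**Figure D2:**
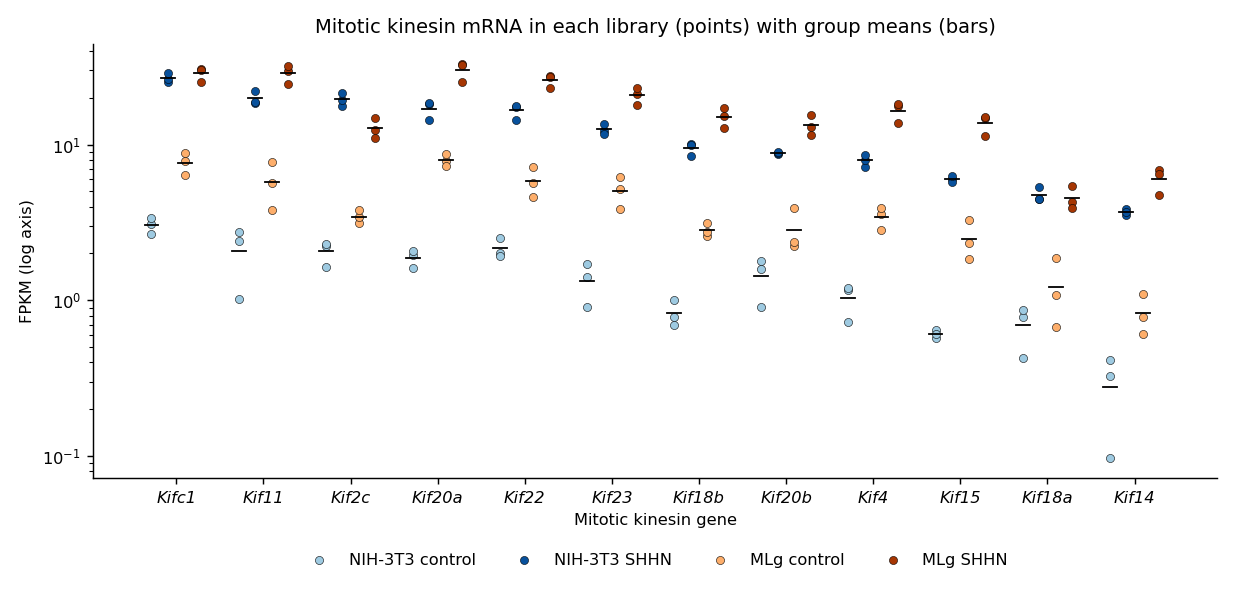
FPKM of the 12 tested mitotic kinesin genes in each library (points, log axis) with the mean of the 3 libraries of each group (bars). Every treated library of a line lies above every control library of that line for each of the 12 genes, and NIH-3T3 controls are mostly the lowest. The share of all tested genes that separate in this way was not counted.

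Summed over the mitotic class, the level was 15.3 to 18.8 FPKM in NIH-3T3 controls and 141 to 165 FPKM with SHHN. In MLg the sum was 40.4 to 57.0 FPKM in controls and 185 to 236 FPKM with SHHN. Mitotic motors accounted for 7.71% ± 0.23 of all kinesin FPKM in NIH-3T3 controls, 39.5% ± 2.29 with SHHN, 18.2% ± 2.41 in MLg controls and 46.8% ± 3.07 with SHHN (SD, n = 3 each). The control and SHHN shares did not overlap in either line. The summed cargo class went from 172 ± 23.0 to 199 ± 9.59 FPKM in NIH-3T3 and from 185 ± 3.16 to 208 ± 1.62 FPKM in MLg. The second NIH-3T3 control library had the lowest sum of all kinesins, 192 FPKM against 242 and 245 FPKM in the other NIH-3T3 controls. With any single library left out, that one included, the 12 mitotic genes stayed higher with SHHN in both lines.

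**Figure D3:**
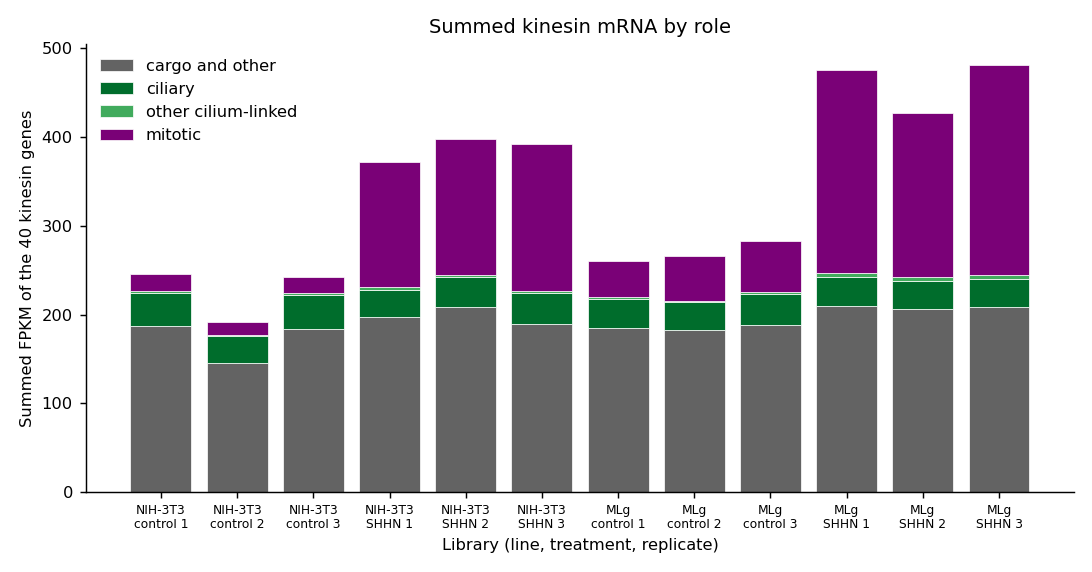
Summed FPKM of the 40 kinesin genes in each of the 12 libraries, stacked by role. The mitotic part is at most 57.0 FPKM in every control library and at least 141 FPKM in every SHHN library, while the ciliary part stays between 29.4 and 38.3 FPKM.

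Genes of cell division outside the kinesin family were read beside these motors. All 8 genes of a proliferation list rose in both lines, where 16.6% (NIH-3T3) and 12.8% (MLg) of all tested genes were called higher. Their median log2 fold change was 2.40 in NIH-3T3 and 2.07 in MLg, beside -0.012 and -0.003 over all tested genes. Mcm5, a subunit of the replicative helicase, had log2 fold changes of 2.75 and 2.36, and Ccnb1, the mitotic cyclin, of 2.97 and 2.04. Mcm2, another helicase subunit, gave 2.05 and 1.84, Pcna, the replication clamp, 1.77 and 1.83, and Top2a, the topoisomerase of dividing cells, 1.68 and 3.14. The summed list was 132 ± 15.9 FPKM in NIH-3T3 controls, 540 ± 36.7 FPKM with SHHN, 188 ± 29.0 FPKM in MLg controls and 838 ± 65.8 FPKM with SHHN. Within each group of 3, the library order by this sum was the order by the mitotic kinesin sum. The part of cell division in the kinesin levels was not tested. The summed fibroblast markers moved in NIH-3T3, from 14003 to 15730 FPKM in controls to 9368 to 11087 FPKM with SHHN, and overlapped in MLg, and their part in the kinesin levels was not tested.

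Promoter windows of the members, from 250 bases before to 50 bases after the RefSeq start site, were read from RefSeq on GRCm38.p6, and 32 of 40 members had at least 1. Kif1a, Kif1b, Kif2a and Kif9 had 2 windows each, and a gene was counted when any of its windows held the letters. The cell-cycle homology region (CHR) is an element known from promoters of late cell-cycle genes, and a CCAAT box is often found upstream of it. The windows were searched on both strands for TTTGAA or TTCGAA (CHR), CCAAT, TTTCCCGC or TTTGGCGC (E2F type) and GACCACCCA (Gli type). Windows are shown for a mitotic motor of the spindle, a mitotic motor of the midzone, the 2 non-mitotic members that rose in both lines (Kif24 and Kif26b) and the Hedgehog regulator Kif7. They are written 5′ to 3′ on the strand of the gene, with CHR, CCAAT, E2F and Gli matches of either strand in capitals.
Kif11, chr19:37376132-37376431, plus strand: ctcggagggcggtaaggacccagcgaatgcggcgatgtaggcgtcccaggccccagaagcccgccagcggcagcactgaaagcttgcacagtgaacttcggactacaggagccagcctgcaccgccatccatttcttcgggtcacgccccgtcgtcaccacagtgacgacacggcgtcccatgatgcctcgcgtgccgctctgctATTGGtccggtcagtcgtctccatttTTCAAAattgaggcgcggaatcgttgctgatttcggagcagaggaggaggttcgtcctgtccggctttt
Kif23, chr9:61946750-61947049, minus strand: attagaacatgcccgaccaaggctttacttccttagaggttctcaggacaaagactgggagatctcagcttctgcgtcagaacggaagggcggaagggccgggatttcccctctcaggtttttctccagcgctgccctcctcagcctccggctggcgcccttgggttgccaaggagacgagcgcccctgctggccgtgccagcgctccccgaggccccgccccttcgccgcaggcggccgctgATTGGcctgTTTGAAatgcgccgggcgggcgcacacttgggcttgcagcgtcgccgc
Kif24, chr4:41464799-41465098, minus strand: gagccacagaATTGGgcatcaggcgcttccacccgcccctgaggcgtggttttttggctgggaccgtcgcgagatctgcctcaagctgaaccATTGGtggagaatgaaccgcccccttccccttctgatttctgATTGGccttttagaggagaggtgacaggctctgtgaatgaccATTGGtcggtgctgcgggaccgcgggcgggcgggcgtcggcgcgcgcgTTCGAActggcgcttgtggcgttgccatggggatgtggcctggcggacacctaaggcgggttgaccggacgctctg
Kif26b, chr1:178528875-178529174, plus strand: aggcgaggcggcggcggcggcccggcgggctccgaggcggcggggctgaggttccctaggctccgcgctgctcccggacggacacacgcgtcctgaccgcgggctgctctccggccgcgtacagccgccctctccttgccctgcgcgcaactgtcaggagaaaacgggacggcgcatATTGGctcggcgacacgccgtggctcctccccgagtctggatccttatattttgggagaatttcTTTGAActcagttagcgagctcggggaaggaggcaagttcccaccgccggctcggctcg
Kif7, chr7:79715658-79715957, minus strand: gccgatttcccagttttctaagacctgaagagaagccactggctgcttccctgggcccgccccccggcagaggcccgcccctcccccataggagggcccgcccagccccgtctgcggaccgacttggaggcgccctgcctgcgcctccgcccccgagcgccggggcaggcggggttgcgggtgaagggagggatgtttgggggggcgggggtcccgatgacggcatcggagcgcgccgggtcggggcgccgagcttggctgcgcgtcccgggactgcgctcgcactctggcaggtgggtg
The Kif11 window holds a CHR match whose first base is 19 bases before the start site and a CCAAT match 45 bases before it. Kif24 has its CHR match 26 bases before the start and 4 CCAAT matches further upstream, Kif26b has a CHR match 9 bases before and a CCAAT match 73 bases before, and Kif7 has none of the motifs.

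CHR letters were found for 10 of 12 mitotic genes with a window (83.3%), 0 of 3 ciliary, 2 of 5 other cilium-linked and 2 of 12 cargo genes, against 21.7% of all 27025 genes in the table. CCAAT was found for 8 of 12 mitotic, 2 of 3 ciliary, 3 of 5 other cilium-linked and 2 of 12 cargo genes, and for 41.1% of all genes. E2F-type letters occurred for 2 mitotic genes (16.7%; all genes 1.80%) and the Gli-type letters for 0 of the 32 (all genes 0.289%). Of the 14 members higher with SHHN in both lines, 13 had a window, and 12 of these held CHR letters, 10 of them within 50 bases of the start site. Of the other 26 members, 19 had a window, 2 held CHR letters (Kif1a and Kif27) and 1 of these lay within 50 bases of the start. The windows with CHR letters of Kif1a, Kif27, Kif2c, Kif14 and Kif4 lie wholly inside the GENCODE gene, so their start sites are not its outermost ones. CHR letters within 50 bases of the start occur for 6.12% of all genes. The split by response was made after the responses were known, and a match of letters is a description of the window and no evidence of binding.

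**Figure D4:**
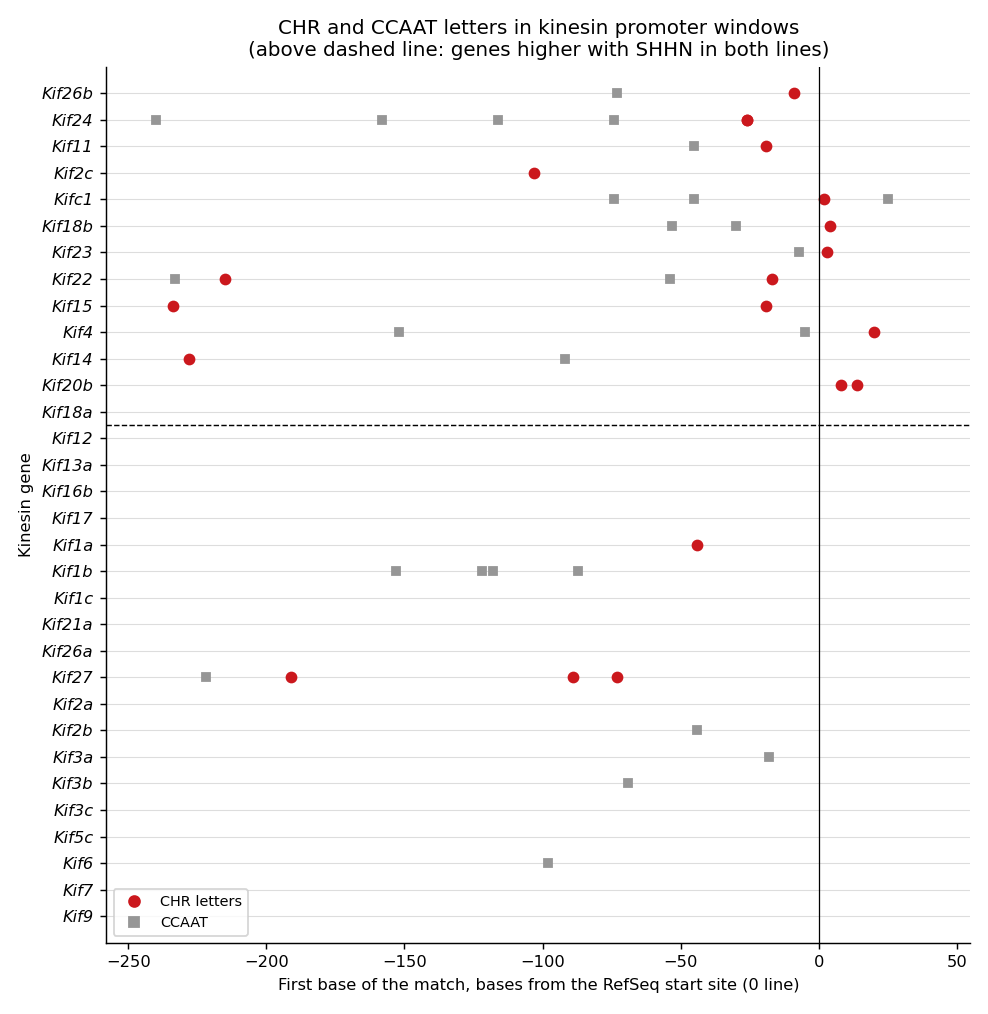
Position of CHR letters (circles) and CCAAT letters (squares) in the promoter windows of 32 kinesin genes, as the distance of the first base from the start site in bases. Above the dashed line are the 13 members with a window that were higher with SHHN in both lines, and 12 of them carry CHR letters.

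The ciliary motors did not rise together as the mitotic ones did. In MLg 0 of the 3 passed the limma test (also 0 at an unadjusted p under 0.05), where 22.8% of all tested genes were called. In NIH-3T3 1 was higher and 1 lower, where 16.6% and 14.8% of all tested genes were. With only 3 genes, these counts cannot be set apart from those shares. Kif7 (chr7:79698098-79715720, minus strand) was at 5.23, 5.58 and 4.52 FPKM in NIH-3T3 controls and 7.40, 8.94 and 7.67 FPKM with SHHN. All 3 treated libraries were above all 3 controls, and the effect on the log2 scale was 0.60 (SE 0.13, adjusted p 0.0032). In MLg Kif7 was at 6.05, 6.45 and 5.11 FPKM in controls and 5.40, 5.94 and 5.90 FPKM with SHHN. These groups overlapped, and the log2 fold change was -0.02 with a 95% interval from -0.30 to 0.26. The difference of the effects was 0.62 (SE 0.19, adjusted p 0.0411). That call was lost in 9 of the 12 single-library omissions (adjusted p 0.057 to 0.11), all but those of the second NIH-3T3 control, the first NIH-3T3 SHHN and the third MLg control library, and also without the filter (0.0513), after quantile normalisation (0.0567) and with replicate number as a block (0.0559).

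Kif3a, the motor subunit of kinesin-2, was at 23.9, 17.6 and 25.5 FPKM in NIH-3T3 controls and 14.1, 15.4 and 17.7 FPKM with SHHN. Only the lowest control met the highest treated library, and the log2 fold change was -0.48 (adjusted p 0.0247). It was no longer called when either the first or the third control library (adjusted p 0.0754 and 0.102) or the first or the second treated one (0.0921 and 0.0699) was left out, or when the 6 NIH-3T3 libraries were fitted alone (0.0938). In MLg Kif3a was at 14.3, 15.2 and 18.8 FPKM and at 14.8, 14.9 and 14.8 FPKM with SHHN, a log2 difference of -0.11 with a 95% interval from -0.43 to 0.21. Kif3b, the partner motor subunit, was at 7.42, 6.16 and 8.24 FPKM in NIH-3T3 controls and 8.87, 8.88 and 9.07 FPKM with SHHN, a log2 difference of 0.29 that did not pass (adjusted p 0.10). In MLg it was at 11.6, 10.0 and 10.9 FPKM without and 11.7, 9.68 and 10.3 FPKM with SHHN, so both groups covered the same range. Kif3a was the highest of the 3 ciliary motors per unit length in every library.

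**Figure D5:**
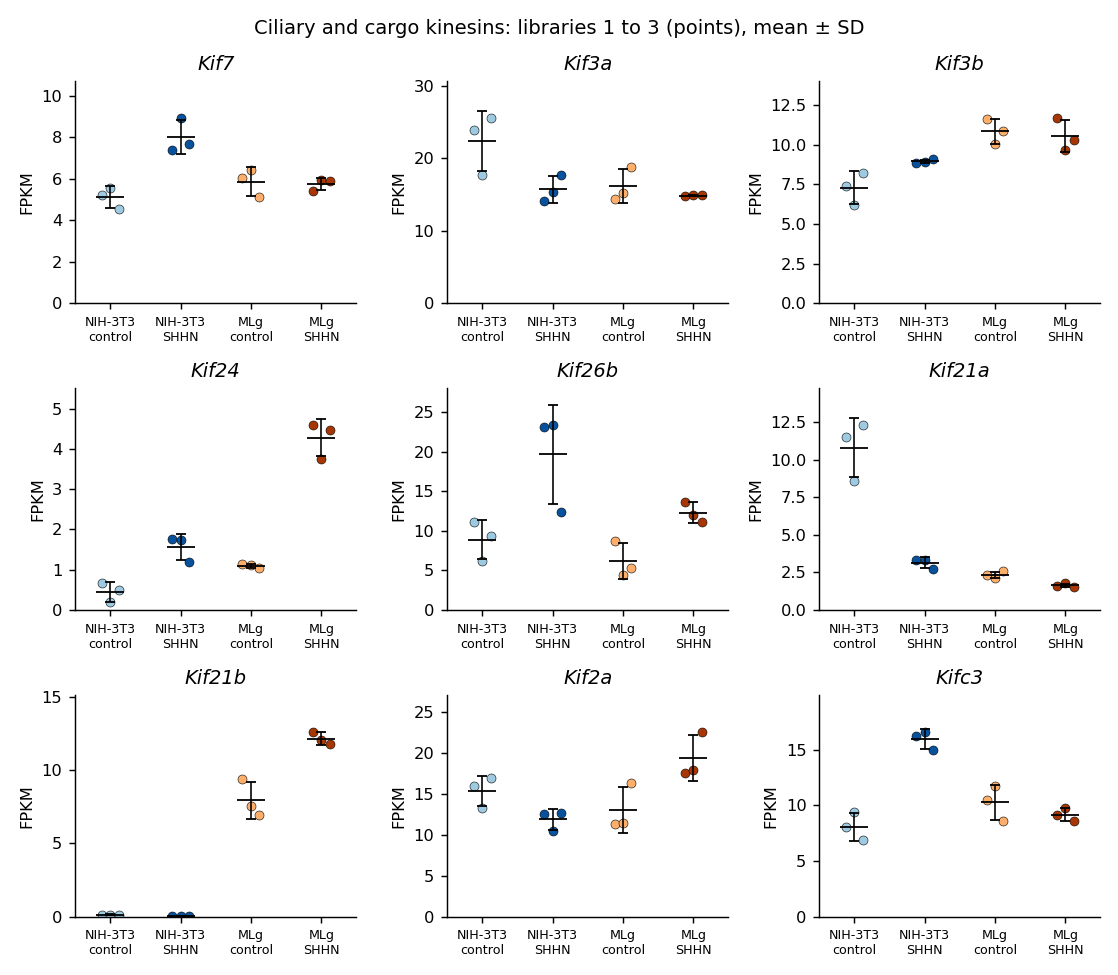
FPKM in each of the 12 libraries (points) with the mean and SD of each group of 3 (bars) for 4 cilium-linked and 5 cargo kinesin genes. Treated Kif7 libraries lie above the controls in NIH-3T3 and among them in MLg, and Kif21b is at 6.91 FPKM or more in MLg and at most 0.146 FPKM in NIH-3T3.

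Kif24 and Kif9 were the only tested members of the other cilium-linked group. Kif24 removes tubulin at the mother centriole and holds back cilium formation. It was at 0.663, 0.185 and 0.483 FPKM in NIH-3T3 controls and 1.76, 1.74 and 1.2 FPKM with SHHN, with a log2 fold change of 1.15 (adjusted p 0.00039). In MLg it rose from 1.13, 1.11 and 1.04 FPKM to 4.59, 3.75 and 4.47 FPKM, with a log2 fold change of 1.58 (adjusted p 3.2e-05). Both sets of groups were apart, and the difference of the effects was -0.43 with a 95% interval from -1.01 to 0.16. Kif9, a motor of motile cilia, was at most 1.01 FPKM in every library, and its log2 differences of -0.36 and -0.32 did not pass. Without the second NIH-3T3 control library the NIH-3T3 difference was -0.54 and passed (adjusted p 0.0415).

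Among the cargo and other motors, 4 of 14 rose and 2 fell in NIH-3T3, where 16.6% and 14.8% of all genes did, and 3 rose in MLg, where 12.8% did. Their medians were -0.12 and 0.01, close to those over all genes. Kif26b, an atypical kinesin that takes part in kidney and limb development, was the 1 gene of the class called higher in both lines. It was at 11.1, 6.25 and 9.38 FPKM in NIH-3T3 controls and 23.2, 23.4 and 12.4 FPKM with SHHN, and at 8.72, 4.41 and 5.34 FPKM in MLg controls and 13.7, 12.1 and 11.1 FPKM with SHHN. Neither pair of groups overlapped, and the log2 fold changes were 1.08 (SE 0.27, adjusted p 0.0084) and 0.99 (SE 0.27, adjusted p 0.0182). The MLg call was lost without the second (adjusted p 0.0905) or the third (0.0575) control library or the first treated one (0.0706), and the NIH-3T3 call was lost when only that line's 6 libraries were fitted (0.0524).

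Kif21a (chr15:90933276-91049948, minus strand), a motor that slows microtubule growth at the cell edge, fell in NIH-3T3 from 11.5, 8.58 and 12.3 FPKM to 3.35, 3.34 and 2.74 FPKM. The log2 fold change was -1.62 (SE 0.15, adjusted p 2.1e-06), the largest fall of any member. In MLg it was at 2.31, 2.12 and 2.57 FPKM in controls and 1.57, 1.76 and 1.55 FPKM with SHHN. Those groups did not overlap either, but the log2 difference of -0.41 did not pass (adjusted p 0.0661) unless the second NIH-3T3 control library was left out (0.0265), the 6 MLg libraries were fitted alone (0.0345), or other scaling was used (0.0258 and 0.0436). The difference of the effects was -1.21 (adjusted p 0.002). With SHHN the NIH-3T3 mean was 3.14 ± 0.349 FPKM, beside 2.33 ± 0.223 FPKM in MLg controls, a comparison that was not tested. Between the lines with SHHN, Kif21a was still higher in NIH-3T3 (log2 difference 0.77, limma adjusted p 0.00085).

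Kif21b, its relative, known as a motor of neurons and immune cells, was at 9.35, 7.52 and 6.91 FPKM in MLg controls and 12.6, 12.1 and 11.8 FPKM with SHHN (log2 fold change 0.59, adjusted p 0.0052). In NIH-3T3 it was at 0.136, 0.146 and 0.0923 FPKM in controls and 0.0295, 0.0403 and 0.0395 FPKM with SHHN. These NIH-3T3 levels are under the 0.5 FPKM added before the log, and the log2 difference of -0.22 did not pass (adjusted p 0.24). With 0.1 FPKM added instead it was -0.71 and passed (0.0105). The difference also passed when the 6 NIH-3T3 libraries were fitted alone with 0.5 FPKM added (-0.22, limma adjusted p 0.0447).

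Kifc3, a minus-end motor of the Golgi and of cell junctions, rose in NIH-3T3 from 8.04, 9.37 and 6.86 FPKM to 16.3, 16.6 and 14.9 FPKM (log2 fold change 0.95, adjusted p 0.00015). In MLg it was at 10.5, 11.8 and 8.59 FPKM without and 9.14, 9.74 and 8.58 FPKM with SHHN, and those groups overlapped. The difference of the effects was 1.10 (adjusted p 0.0025). Kif1c, a motor of integrin vesicles and mRNA, was the highest kinesin in all 4 groups. It was at 51.0, 43.8 and 46.3 FPKM in NIH-3T3 controls and 63.4, 66.6 and 69.3 FPKM with SHHN, a log2 fold change of 0.50 (adjusted p 0.0028), and at 58.1, 59.7 and 49.1 FPKM in MLg controls and 60.3, 58.6 and 54.5 FPKM with SHHN. The groups were apart in NIH-3T3 and overlapped in MLg, but the difference of the Kif1c effects, 0.44, did not pass (adjusted p 0.073), except without the third MLg control library (0.0325).

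Kif13a, which moves endosomes and melanosome cargo, rose in NIH-3T3 from 7.25, 5.87 and 7.18 FPKM to 11.3, 11 and 8.73 FPKM (log2 fold change 0.57, adjusted p 0.0043). It was at 9.77, 9.78 and 11.4 FPKM in MLg controls and 12.8, 12.2 and 11.7 FPKM with SHHN, and the log2 difference of 0.24 did not pass. Kif3c, a kinesin-2 subunit without a known part in cilium assembly in most cells, fell in NIH-3T3 from 12.4, 10.5 and 11.4 FPKM to 8.16, 9.11 and 7.26 FPKM (log2 fold change -0.46, adjusted p 0.0154). The Kif3c groups did not overlap, and the call was lost without the first control (adjusted p 0.056) or the third treated library (0.0614), and when the 6 NIH-3T3 libraries were fitted alone (0.0561).

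Kif2a, which takes microtubule ends apart in resting and dividing cells, was higher in MLg with SHHN, at 17.5, 17.9 and 22.6 FPKM against 11.3, 11.5 and 16.3 FPKM (log2 fold change 0.56, adjusted p 0.0211). The groups did not overlap, but that call was lost without the first or second MLg control (0.088 and 0.0916) or the third treated library (0.11). In NIH-3T3 Kif2a was at 15.9, 13.3 and 16.9 FPKM in controls and 12.6, 10.4 and 12.6 FPKM with SHHN, groups that also did not overlap, with a log2 difference of -0.36 that did not pass (adjusted p 0.11). The difference of the effects was -0.92 (adjusted p 0.0169; 0.0529 without the third MLg library with SHHN).

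Kif5b, the ubiquitous heavy chain of conventional kinesin, ranked just below Kif1c in every group. Its means were 26.5 and 27.7 FPKM in NIH-3T3 and 41.1 and 47.4 FPKM in MLg, without and with SHHN, and its log2 differences of 0.09 and 0.21 did not pass (95% intervals -0.26 to 0.44 and -0.14 to 0.56). Kif1b, a motor of mitochondria and vesicles, had means of 18.0 and 19.7 FPKM in NIH-3T3 and 16.4 and 15.9 FPKM in MLg. Without the second NIH-3T3 control library the NIH-3T3 differences of Kif5b and Kif1b were -0.12 and -0.079, neither of them called. The other members tested, Kif5a, Kif13b, Kif16b and Kifc2, did not pass in either line in the model of all 12 libraries. Kif13b passed in NIH-3T3 without the second control library (-0.55, adjusted p 0.0249), and Kifc2 passed in MLg after quantile normalisation (-0.44, adjusted p 0.0352) and when the 6 MLg libraries were fitted alone (-0.39, 0.0478).

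Genes that work with kinesins, together with Cenpe and Kifc5b, kinesin relatives that the symbol rule leaves out, were read from a list. Of this list 17 were found in the table and 16 were tested. In NIH-3T3 6 were higher and 1 lower, where 16.6% and 14.8% of all tested genes were. In MLg 6 were higher and 3 lower, where 12.8% and 10.0% of all tested genes were. Those higher in both lines were Cenpe, Hmmr, Kifc5b, Prc1, Racgap1 and Tpx2, all known parts or regulators of the spindle or its midzone. Prc1, which bundles midzone microtubules and recruits Kif4, had log2 fold changes of 2.94 (adjusted p 7.3e-09) and 2.15 (1.9e-07). Racgap1, the partner of Kif23 in the centralspindlin complex, had 2.70 and 1.85, and Tpx2, a spindle assembly factor that binds Kif11 and Kif15, had 2.73 and 2.03. Klc1 and Klc2, light chains of conventional kinesin, Kifap3, the non-motor subunit of kinesin-2, and the mitochondrial adaptors Trak1 and Trak2 passed in neither line. The called-lower genes, named after their values were seen, were Mapk8ip3, a cargo adaptor, in NIH-3T3 (-0.72, adjusted p 0.00061), and in MLg the light chains Klc3 (-0.87, 0.0044) and Klc4 (-0.57, 0.0103) and the adaptor Mapk8ip1 (-0.46, 0.0165). Of 13 tested genes of cytoplasmic dynein and dynactin, the motor that walks the opposite way, Dynlrb1 was lower in NIH-3T3 (log2 fold change -0.36), and in MLg Dynll1 was higher (0.42) and Dynlt1b lower (-0.66). These dynein counts were below the shares called over all tested genes.

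The SHHN effect itself differed between the lines for 10 of 31 kinesins: in 7 the log2 fold change was higher in NIH-3T3 than in MLg and in 3 it was lower, where 7.48% and 5.95% of all genes were called (13.4% in either direction). Of the 7, 5 were mitotic. Their differences were 1.23 for Kif2c (adjusted p 0.0017), 1.11 for Kifc1 (0.002), 1.02 for Kif20a (0.0056), 0.90 for Kif23 (0.0402) and 0.70 for Kif18b (0.0421). The other 2 were Kif7 and Kifc3, and the 3 with the lower effect in NIH-3T3 were Kif21a, Kif21b and Kif2a. For Kif11 the difference was 0.78 and did not pass (adjusted p 0.20, 95% interval -0.04 to 1.59), and for Kif14 it was 0.16 (interval -0.44 to 0.75). The Kif14 levels of all NIH-3T3 controls were under the 0.5 FPKM added before the log, so its difference depends on that number. Its means went from 0.280 to 3.68 FPKM in NIH-3T3 and from 0.831 to 6.01 FPKM in MLg, and a like response in both lines cannot be read from the fit. The count of 7 fell to 4 without any one of the third NIH-3T3 control, the second or the third NIH-3T3 SHHN, the second MLg control, or the second or the third MLg SHHN library, and to 4 without the filter. The Kif18b call was lost in 9 of 12 single-library omissions (adjusted p 0.0544 to 0.112), all but those of the first NIH-3T3 control, first NIH-3T3 SHHN and first MLg SHHN library. It was also lost with 1 FPKM added before the log (0.124), without the filter (0.0634), after quantile normalisation (0.0511) and with replicate number as a block (0.0803). The Kif23 call was lost in 10 of 12 (0.0511 to 0.101), all but those of the first control library of each line, and also with 1 FPKM added before the log (0.0699) and without the filter (0.0706). For Kif22 the difference of 0.61 did not pass (0.0959), but did without the second NIH-3T3 control (0.0445) or the first MLg control (0.0440).

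Without ligand, the lines already differed. Of the 31 kinesins, 6 were higher and 17 lower in NIH-3T3 controls than in MLg controls, where 24.4% and 25.7% of all genes were called (50.1% in either direction). The 17 held 11 of the 12 mitotic motors, with a class median of -1.27. Kif20a had the largest mitotic difference, -1.83, and Kif18a, at -0.48, was the mitotic motor that did not pass (adjusted p 0.10). With SHHN 8 kinesins were higher and 13 lower in NIH-3T3 than in MLg (22.1% and 24.8% of all genes, 46.8% in either direction), the mitotic median was -0.63, and 8 of 12 mitotic motors were lower. The count of 8 higher genes was 4 without the second NIH-3T3 SHHN library. Kif2c changed sides: its log2 line difference was -0.63 in controls and 0.60 with SHHN, both called. Kifc1 did not differ detectably with SHHN, -0.09 with a 95% interval from -0.38 to 0.21. The line and treatment comparisons share their libraries, so these values are not independent of the SHHN effects above.

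Several cargo motors were called different between the lines both without and with SHHN. Kif21b (chr1:136131389-136177998, plus strand) was lower in NIH-3T3 by a log2 difference of -3.74 in controls and -4.56 with SHHN, the largest of all members. Kif16b, an endosome motor, was at 4.34 to 5.11 FPKM in NIH-3T3 controls and 7.20 to 7.73 FPKM in MLg controls (log2 difference -0.62, adjusted p 0.00046), and Kif5b was also lower in NIH-3T3 (-0.65). Kif21a (1.98), Kif13b (0.86), Kif5a (0.78), Kif3c (0.71) and Kifc2 (0.54) were higher in NIH-3T3 controls, where 24.4% of all tested genes were. All 5 were also called higher with SHHN, where 22.1% of all tested genes were. For Kif5a the limma adjusted p with SHHN was 0.0424. Its SHHN libraries overlapped, at 0.264 to 0.703 FPKM in NIH-3T3 and 0.107 to 0.316 FPKM in MLg. Single genes were not refitted for the lines with SHHN. Kif3a was higher in NIH-3T3 controls by 0.45 (adjusted p 0.0226, lost in 4 of 12 single-library omissions and when the 6 control libraries were fitted alone, 0.0764) and did not differ detectably with SHHN (0.07), while Kif3b was lower in NIH-3T3 controls (-0.55, adjusted p 0.0025). Without the second NIH-3T3 control library, Kif26b (0.74, adjusted p 0.0399) and Kifc3 (-0.43, 0.0206) also differed between control lines.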

How the data were processed

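RNA-seq of 12 libraries (NIH-3T3 and MLg, control or SHHN, 3 libraries each) was deposited as 1 table of FPKM per gene symbol. Per the submitters' processing notes, the authors used bcl2fastq, TopHat2 2.0.12, Cufflinks 2.2.1 and the mm10 build, and the values are the authors' FPKM; the annotation and strand setting are not given in the sources used here. FPKM are scaled per library, so a change in a few abundant genes moves all others. Library totals were 470218 to 659862 FPKM. Read counts could not be recovered from the values, so depth is unknown, and no counting interval is given.

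A gene was kept when 3 or more libraries reached 0.5 FPKM, which left 12379 of 24346 (1 row without values was left out), and these were fitted with limma 3.58.1 (R 4.3.3) on log2(FPKM + 0.5), with 4 group means in 1 model, mean-variance trend and two-sided tests. Benjamini-Hochberg adjustment ran over all tested genes with a threshold of 0.05. Intervals are 95% intervals of the fit. The labels do not say whether libraries came from separate cultures, so p-values measure only the spread between these libraries, and no batch is labelled. The fit was tested on simulated data. The members, classes and lists were chosen with earlier results of these data known. Every member may be named. Values of every library are given for Kif11, Kif7, Kif3a, Kif3b and most genes of a set chosen by p. In each class that set held the 4 genes with the smallest p in each SHHN comparison, their difference and the control-line comparison. Kif16b, Kif3c and Kif9 are among those given only in part. For some genes of the partner, proliferation and dynein lists, log2 fold changes are given instead of library values.

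Whether equal replicate numbers pair libraries was checked by correlating deviations from group means over genes. In MLg all 3 same-number pairs were above 0.1 (0.13, 0.16 and 0.24), a pairing taken from the data, and with replicate number as a block no MLg kinesin call changed. The other comparisons did not meet this rule.

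Promoter windows came from RefSeq (GRCm38.p6), gene positions and shared 50-base stretches from GENCODE M21 (GRCm38), with Python 3.11.15, pandas 2.3.3 and matplotlib 3.10.9. Alternatives were pseudocounts of 0.1 and 1, no filter or a filter at 1 FPKM, scaling by quantiles or by median ratios, fits on only the 6 libraries compared, replicate number as a block, leaving out each library, and, chosen after the data were seen, Kifc1 and Kifc5b summed.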

Additional observations from a re-analysis of the deposited data

Results flagged for a closer look

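For 10 of the 31 tested kinesin genes the log2 effect of SHHN differed between the lines by the limma test of the difference itself, given here as the effect in NIH-3T3 minus that in MLg. The spindle and midzone motors Kif2c (1.23), Kifc1 (1.11), Kif20a (1.02), Kif23 (0.90) and Kif18b (0.70) had the higher effect in NIH-3T3, and each was higher with SHHN in all 3 treated libraries of both lines. Kifc3 (1.10) and Kif7 (0.62) were also higher in NIH-3T3, where all 3 treated libraries exceeded all 3 controls, while their MLg groups overlapped. Kif21a (-1.21), Kif2a (-0.92) and Kif21b (-0.81) had the lower effect in NIH-3T3. Kif2a and Kif21b were called higher with SHHN in MLg, and Kif21a was called lower in NIH-3T3. The calls of Kif7, Kif18b and Kif23 were lost in 9, 9 and 10 of 12 single-library omissions, and that of Kif2a in 1.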

How the results depend on the processing

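Single genes were refitted for the SHHN effect in each line, its line difference and the control-line difference, not for the lines with SHHN. Of the 70 gene results called in these comparisons, 60 kept their call under every alternative run, 10 lost it in at least 1, and 0 changed sign. The 12 mitotic kinesins remained higher with SHHN in both lines under every alternative. The lower genes in NIH-3T3 (3) numbered 1 to 5 with single libraries left out. The lower genes in MLg (0) numbered 2 after quantile normalisation, 1 after median-ratio scaling, 2 with 6 libraries per fit and 0 to 1 with single libraries left out. The genes with the higher SHHN effect in NIH-3T3 (7) numbered 4 without the filter and 4 to 6 with single libraries left out. The genes higher in NIH-3T3 SHHN than in MLg SHHN (8) numbered 4 to 8. The remaining 236 values of these counts were within 1.5 times the reported ones. In these comparisons sign changes occurred only among 15 results that were not called. For the Kif14 line difference the value was -0.052 with a pseudocount of 1 and -0.083 after quantile normalisation, and for Kif16b in MLg it was -0.044 after quantile normalisation. With single libraries left out, the log2 effect in NIH-3T3 ranged from -0.079 to 0.32 for Kif1b, -0.12 to 0.22 for Kif5b and -0.21 to 0.0031 for Kifc2. In MLg it ranged from -0.15 to 0.085 for Kif1b, -0.027 to 0.11 for Kif1c, -0.19 to 0.0060 for Kif3a, -0.11 to 0.018 for Kif3b and -0.11 to 0.043 for Kif7. The line difference of the effect ranged from -0.026 to 0.28 for Kif14, -0.053 to 0.34 for Kif1b, -0.17 to 0.39 for Kif26b, -0.33 to 0.010 for Kif5b and -0.22 to 0.083 for Kif9, and the control-line difference of Kif1b from -0.052 to 0.35. The cause was not tested. With the replicate block, 18 kinesins were higher and 4 lower with SHHN in NIH-3T3, 16 higher and 0 lower in MLg, and 5 and 3 had the higher and lower effect in NIH-3T3. The block ended the line-difference calls of Kif7 (adjusted p 0.0559) and Kif18b (0.0803), and it added Kif2a in NIH-3T3 (0.0244), and Kif18a (0.0314) and Kifc3 (0.0175) between control lines. Scaling alternatives moved the median of all genes by less than 0.1 on the log2 scale. Depth is unknown, and levels under 0.5 FPKM, as for Kif21b in NIH-3T3, limit what can be read from a fold change.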

Other observations

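Of the 9 members too low to be tested, Kif6 and Kif27 are given here because they reached the highest levels. Kif6, a motor of motile cilia, was at 0.581, 0.504 and 0.380 FPKM in NIH-3T3 controls and 0.278, 0.285 and 0.365 FPKM with SHHN, and at 0.0517 to 0.175 FPKM in the 6 MLg libraries. Every NIH-3T3 library was above every MLg library. Kif27, the closest relative of Kif7, was at 0.0687, 0.0857 and 0.151 FPKM in MLg controls and 0.253, 0.201 and 0.220 FPKM with SHHN, and at 0.0295 to 0.0886 FPKM in NIH-3T3. The MLg groups of Kif27 did not overlap, and no test was made at these levels.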
